A study of Mus musculus with 4 samples.

Results

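Pancreatic polypeptide (PP) cells of mouse islets were taken from 4 droplet single-cell RNA-seq libraries by their hormone transcripts. A barcode was kept when mitochondrial transcripts made up less than 10% of its unique molecular identifiers (UMIs, each counting 1 captured RNA molecule), when it held 3000 to 50000 UMIs, and when it held 2000 to 5000 genes. A kept cell was a PP cell when Ppy and Pyy together made up at least 2% of its UMIs and exceeded each of Ins1 plus Ins2, Gcg and Sst. Of 22218 barcodes 12752 passed the filter, and 625 of these were PP cells. The same rule on Gcg gave 1603 alpha cells, the rule on Sst gave 1110 delta cells, and Ins1 plus Ins2 at 10% or more gave 8335 beta cells.

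The islets came from male C57BL6/N littermates that were wild type for Pax4 (WT) or homozygous for a Pax4 knock-in allele (HH). WT SCD and HH SCD mice were 12 weeks old and fed standard chow (SCD). WT HFD and HH HFD mice were 16 weeks old and had spent their last 4 weeks on a high-fat diet (HFD). Each of these 4 groups was 1 library, made from the trypsin-dissociated islets of several mice pooled before capture, so genotype and library cannot be told apart, and neither can diet and age. WT SCD gave 133 PP cells, HH SCD 177, WT HFD 85 and HH HFD 230. Sets of 4 values below follow this order of libraries.

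PP cells are a rare endocrine cell type of the islet, found mainly in the part of the pancreas nearest the duodenum. They release pancreatic polypeptide, the product of Ppy, after meals and under vagal control, and the peptide acts on the Y4 receptor to slow gut motility and pancreatic secretion. Peptide YY, the product of Pyy, belongs to the same peptide family as pancreatic polypeptide and neuropeptide Y and is also made in other islet cells and in the gut.

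The genes for both hormones lie on the minus strand of mouse chromosome 11, with start sites 6513 bases apart. The 150 bases before each start are shown because these 2 genes define the cells, with capitals marking a TATAA match. Sequences are from RefSeq on GRCm38.p6 and read 5′ to 3′ on the minus strand, at chr11:102101320-102101469 for Ppy and chr11:102107833-102107982 for Pyy.
Ppy: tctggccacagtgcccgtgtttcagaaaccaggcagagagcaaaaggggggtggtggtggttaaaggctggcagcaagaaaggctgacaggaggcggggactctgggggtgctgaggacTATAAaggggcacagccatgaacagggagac
Pyy: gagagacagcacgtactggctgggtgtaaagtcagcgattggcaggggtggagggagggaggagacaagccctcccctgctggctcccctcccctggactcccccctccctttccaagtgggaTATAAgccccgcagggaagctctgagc

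The TATAA match lay 31 to 27 bases before the Ppy start and 27 to 23 bases before the Pyy start used here. RefSeq lists another Pyy start, for which the same TATAA lay 83 to 79 bases and the CANNTG match named next 92 to 87 bases before it. On either strand, TATAA was held by 14.16% of 32843 mouse promoter stretches of this length. The general E-box pattern CANNTG matched 36 to 31 bases before the Pyy start used here and not in the Ppy stretch, against 47.68% of all stretches. TAAT, the core letters read by many homeodomain factors, was found in neither stretch, against 37.78% of all. No match overlapped another, and a match is a description of letters only.

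The libraries held 68011082 to 104810105 UMIs, and 38.3% (WT HFD) to 67.8% (HH SCD) of their barcodes passed the filter. PP cells had median depths of 17220, 15063, 21936 and 13885.5 UMIs and median mitochondrial shares of 2.85% to 3.84%. The WT HFD PP cells were thus the fewest and the deepest. A doublet caller scored the cells, and the highest scores in each library were marked up to an assumed rate of 0.8% per 1000 cells. Of the 625 PP cells 9 were marked, a number set in part by that rate. Pairs of libraries shared 6 to 11 barcode sequences, of which 0 were PP cells in both. Pax4 itself had 0 UMIs in the PP, alpha, delta and beta cells of all 4 libraries, which leaves the genotype labels without a check from the edited gene. A count of 0 in the PP sums allowed a level of up to 2.60, 2.06, 3.07 and 1.80 CPM for any gene (CPM, counts-per-million of the class's UMIs without the 6 hormone genes of the rule).

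Ppy and Pyy dominated the transcriptome of the PP cells. Their summed median share of a cell's UMIs was 48.0%, 47.1%, 45.8% and 46.2%, and the highest cells reached 62.3% to 65.9%. Ppy alone had medians of 37.0%, 34.7%, 34.9% and 36.6%. Pyy alone had medians of 9.75%, 9.26%, 8.76% and 7.87%. Cells in which Pyy exceeded Ppy numbered 12, 20, 8 and 13, or 5.65% to 11.3% of the PP cells of a library. The PP cells were chosen by these shares of UMIs, which therefore describe the cells without a test.

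**Figure D1:**
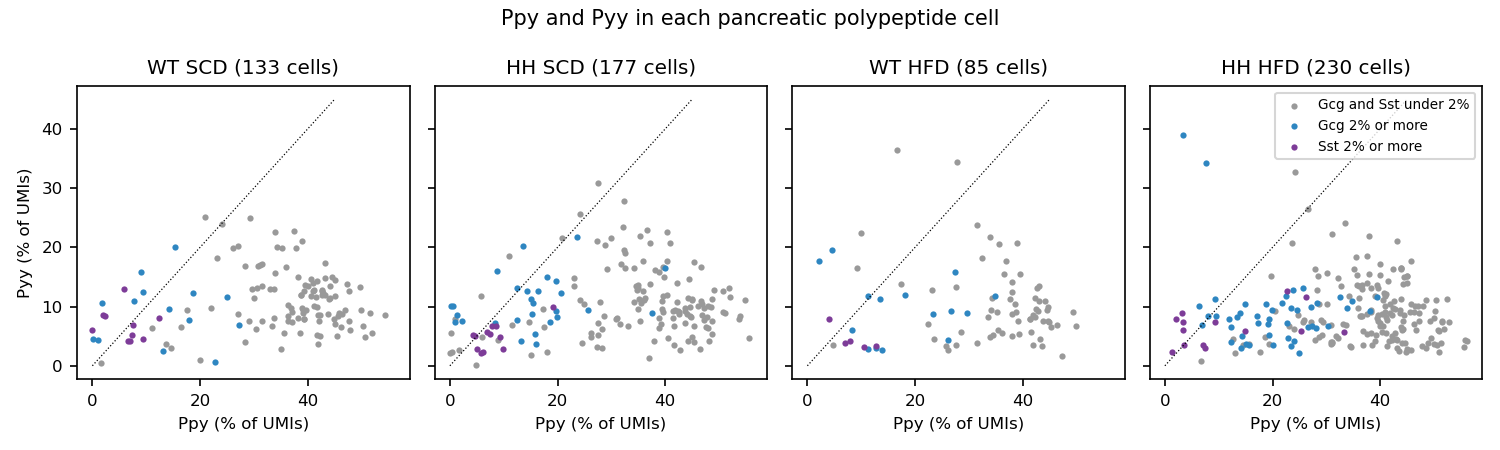
Each point is 1 PP cell, with the share of its UMIs from Ppy on the x axis and from Pyy on the y axis (both in %), 1 panel per library, and the dotted line marks equal shares. Blue cells had 2% or more Gcg and violet cells 2% or more Sst, and most cells lay below the line, at Ppy shares near the medians of 34.7% to 37.0%.

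The edge of the class was sparsely filled. The lowest PP cell of each library had 2.05%, 2.30%, 8.33% and 3.64% of its UMIs from Ppy and Pyy, and the next lowest had 4.63%, 2.67%, 10.9% and 7.09%. No cell led by these hormones lay under 2%. On the other side of the rule, 404, 478, 237 and 557 cells had 2% or more of Ppy and Pyy but more of another hormone. Delta cells made up 298, 318, 146 and 274 of them. Of all delta cells 90.03% to 95.5% passed 2%, while 20.4%, 26.9%, 29.5% and 42.9% of alpha cells and 0.778% to 2.59% of beta cells did so. Over all cells of a class, the median Pyy share of the sum was 71.7% to 84.5% in delta and 83.8% to 85.7% in alpha cells, against 19.6% to 24.9% in PP cells, and Pyy exceeded Ppy in 8.10% to 11.1% of beta cells. Endothelial cells, which make neither hormone and so show the free RNA of the droplets, had medians of 0.0219% to 0.0462%. They were kept cells outside the endocrine classes with 3 or more UMIs of endothelial genes. Since a cell led by Ppy and Pyy at 2% was a PP cell, this definition largely fixed that no endothelial cell reached 2%.

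For the comparison with the other endocrine classes, the counts of each class were summed within each library, which was the replicate (n = 4) and a block in edgeR's quasi-likelihood fit. Ppy, Pyy, Ins1, Ins2, Gcg and Sst were left out of the tests and of the totals, so all levels are CPM without these 6 genes. The reads are 3′ tags, so a level does not scale with transcript length. Against the mean of alpha, delta and beta cells, 12.8% of 14875 genes were higher and 10.8% lower in PP cells at an adjusted p under 0.05. Against a single class these shares were 10.4% higher and 10.2% lower for alpha, 13.2% and 12.8% for delta, and 22.0% and 24.3% for beta cells. Without the HH SCD library the calls against alpha cells numbered 1028 higher and 998 lower, from 1546 and 1512. The p-values rest on how far the differences between classes varied over 4 libraries of pooled islets, each from a different group. The contrasts share the PP sums, so their values are given side by side.

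The 2 PP marker genes that the rule did not use were high in these cells. Tspan8 (chr10:115816832-115849893), a tetraspanin of the cell surface, stood at 1510.5, 1204, 1758 and 1720.3 CPM in PP cells. Its means were 612 ± 71.4 in delta, 56.2 ± 24.0 in alpha and 31.2 ± 4.93 CPM (SD, n = 4) in beta cells, so PP cells lay above every other class in every library. The log2 fold change was 3.85 ± 0.10 (SE) against the mean of the others (edgeR adjusted p = 1.3e-16) and 1.42 ± 0.14 against delta cells (edgeR adjusted p = 5.7e-08). Folr1 (chr7:101858331-101870788), a folate receptor, stood at 705, 671, 645 and 519 CPM against 329 ± 24.0 in delta, 67.3 ± 6.71 in alpha and 49.9 ± 11.9 CPM in beta cells. It was 2.56 ± 0.10 log2 units above the mean of the others and 1.05 ± 0.13 above delta cells (edgeR adjusted p = 3.5e-06). Tspan8 was detected in 94.4% to 98.7% and Folr1 in 87.0% to 95.5% of PP cells, against 7.84% to 11.7% and 0% of endothelial cells, whose median depth was 5812 to 7175 UMIs.

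Among 350 genes that were above all 3 classes in every library, with a mean of 50 CPM or more, the 15 with the largest margin over the nearest class were led by Spp1 and Cd9. Spp1 (chr5:104435118-104441050) encodes osteopontin, a secreted phosphoprotein, and stood at 737, 555, 559 and 576 CPM in PP cells. Alpha cells averaged 65.7 ± 39.8, delta cells 65.8 ± 8.85 and beta cells 18.7 ± 17.4 CPM, and Spp1 was higher in PP cells by 3.88 ± 0.23 log2 units over their mean (edgeR adjusted p = 6.3e-11). Spp1 was unevenly spread over the PP cells, with a UMI in 61.0% to 66.2% of them and 8.41% to 18.7% of a library's PP count in its top cell. It is also a marker of duct cells. The duct list of 6 genes summed to 571 to 748 CPM in PP cells, of which Spp1 was nearly all.

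Cd9 (chr6:125460266-125494791), another tetraspanin, stood at 263, 165, 232 and 286 CPM against 44.0 ± 10.9 in alpha, 15.3 ± 3.87 in delta and 3.63 ± 1.88 CPM in beta cells (log2 fold change 4.05 ± 0.11 against their mean, edgeR adjusted p = 1.7e-16). Endothelial cells also carry Cd9, with a UMI in 54.9% to 66.2% of them, and the 6 endothelial markers summed to 36.9 to 159 CPM in PP cells against 17.8 to 117 in alpha and 13.9 to 190 in delta cells. The part of such RNA in the Cd9 result was not tested.

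Ugt2b34, a glucuronosyltransferase, had the least variable level of the leading genes, at 161, 174, 161 and 155 CPM, against 65.4 ± 6.25 in alpha, 48.9 ± 2.48 in beta and 9.28 ± 1.503 CPM in delta cells.

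The remaining leading genes included Hbegf, a growth factor that binds the epidermal growth factor receptor, with 173 and 198 CPM in the SCD libraries and 91.2 and 82.2 CPM in the HFD libraries. Its excess over the mean of the other classes was 1.58 ± 0.15 log2 units (edgeR adjusted p = 1.1e-07). Uchl1, a neuronal ubiquitin hydrolase, stood at 155, 170.2, 222 and 189.7 CPM against 86.0 to 96.5 on average in alpha and delta cells. Maged2 stood at 271 to 358 CPM against averages of 95.7 to 121. Kdelr3, a receptor that returns proteins to the endoplasmic reticulum, Serpina7, a thyroxine carrier, Cd59a, an inhibitor of complement, and Pid1 and Gm45159 had PP means of 54.7 to 77.0 CPM. The margin of Serpina7 was small in HH HFD, at 61.2 CPM in PP and 57.8 CPM in beta cells. Mt2, a metallothionein, was above the other classes in each library but ranged from 162 CPM in WT HFD to 809 CPM in WT SCD.

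**Figure D2:**
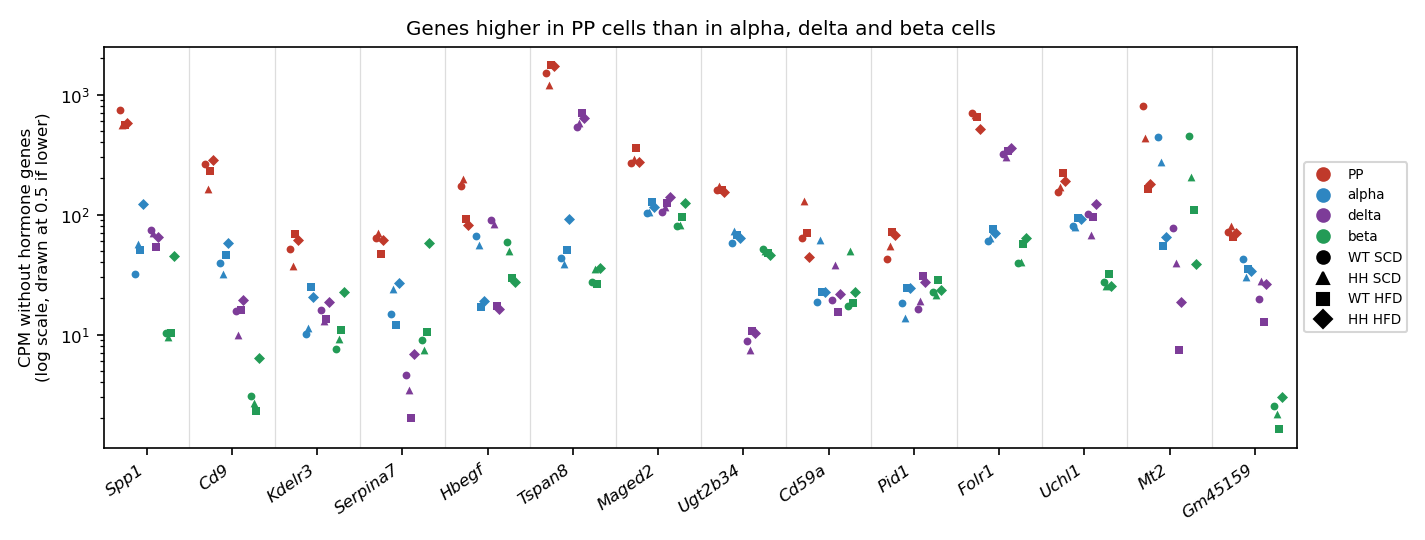
Levels of leading PP-high genes in CPM without the hormone genes (log axis), 1 marker per library and class, with PP cells in red, alpha in blue, delta in violet and beta in green. The red markers lie above the other colours for each gene in every library, with Tspan8 highest at 1204 to 1758 CPM.

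In the other direction, 80 genes with at least 50 CPM in the lowest other class lay below all 3 classes in every library. Rnase4, a secreted ribonuclease, stood at 39.9, 38.4, 41.0 and 45.6 CPM against 309 ± 31.2 in beta, 211 ± 46.6 in alpha and 85.1 ± 12.7 CPM in delta cells (log2 fold change −2.17 ± 0.14 against their mean, edgeR adjusted p = 2.2e-10). Ids, a lysosomal sulfatase, stood at 87.5, 70.7, 74.8 and 103 CPM against 175 to 242 on average. Pde10a, which breaks down cyclic nucleotides, stood at 45.9, 33.6, 28.7 and 46.8 CPM against 118 to 183. Gem, a small GTP-binding protein that curbs calcium channels, stood at 41.6, 47.3, 22.5 and 37.2 CPM against 170.5 ± 32.1 CPM in delta cells (−2.06 ± 0.17 log2 units). Nav1, Gch1, Runx1t1, Gars, Nol4 and Mrln completed the 10 genes with the largest margin, with PP means of 28.1 to 77.1 CPM.

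Of 30 transcription factors tested, 6 were higher and 10 lower than the mean of the other classes, beside 12.8% and 10.8% of all genes, with a median log2 fold change of −0.10 against −0.01 over all genes. Etv1, an ETS family factor, averaged 506 ± 29.8 CPM in PP, 514 ± 23.0 in alpha, 366 ± 6.27 in delta and 48.4 ± 18.2 CPM in beta cells. PP cells differed from alpha cells by −0.14 ± 0.15 log2 units (edgeR adjusted p = 0.58) and were higher than delta cells by 0.55 ± 0.16 (edgeR adjusted p = 0.011) and than beta cells by 3.22 ± 0.16.

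The Iroquois factors of alpha cells were far lower in PP cells. Irx1 stood at 3.47, 6.18, 10.2 and 11.4 CPM against 141 ± 40.3 CPM (−4.26 ± 0.22, edgeR adjusted p = 1.3e-11). Irx2 stood at 31.2, 29.5, 32.8 and 36.0 CPM against 160.5 ± 31.4 CPM (−2.42 ± 0.12). Of the 10 alpha markers without Gcg, 7 were lower in PP than in alpha cells and 1, Smarca1, was higher, beside 10.2% and 10.4% of all genes. The transport protein gene Ttr stood at 5239, 6789, 6089 and 4248 CPM in PP cells against 40781 ± 3293 CPM in alpha cells.

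Nkx6-1, a factor best known for beta cell identity, lay between the classes. It stood at 130.0, 113, 168 and 110.5 CPM in PP cells, above alpha (31.8 ± 2.30) and delta cells (10.6 ± 3.90) and below beta cells (478 ± 64.4 CPM). The log2 differences were 1.90 ± 0.13, 3.66 ± 0.17 and −2.07 ± 0.11, with edgeR adjusted p of 7.6e-10, 7.7e-13 and 9.7e-13. Pdx1, the pancreas-wide homeodomain factor that is high in beta and delta cells, averaged 27.0 ± 4.89 CPM in PP cells against 187 ± 30.7 in beta, 119 ± 25.9 in delta and 8.40 ± 3.00 CPM in alpha cells. Mafa, which activates the insulin genes, averaged 12.0 ± 3.79 CPM against 693 ± 191 CPM in beta cells. All 10 beta markers without the insulin genes were lower in PP than in beta cells, beside 24.3% of all genes.

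Of the factors shared by all islet cells, Neurod1 was lower in PP than in alpha and beta cells and Rfx6 was lower than the mean of the others. Neurod1 averaged 163 ± 14.2 CPM against 277 ± 17.7 in alpha and 312 ± 45.6 CPM in beta cells, and delta cells had 156 ± 14.996 CPM. Rfx6 stood at 10.4, 22.6, 30.7 and 30.6 CPM against 43.7 to 91.1 on average, lower by −1.38 ± 0.16 log2 units than the mean of the others (edgeR adjusted p = 1.2e-06). Pax6 averaged 251 ± 42.5 CPM and was 0.10 ± 0.07 log2 units from alpha cells (edgeR adjusted p = 0.41). Fev, a factor of endocrine progenitors and serotonergic neurons, averaged 44.6 ± 10.5 CPM in PP cells, 34.4 ± 7.96 in alpha and 37.3 ± 9.74 in delta cells, with 0.959 ± 0.245 CPM in beta cells. Hhex, the delta cell factor, averaged 17.9 ± 4.97 CPM against 382 ± 36.1 CPM in delta cells.

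**Figure D3:**
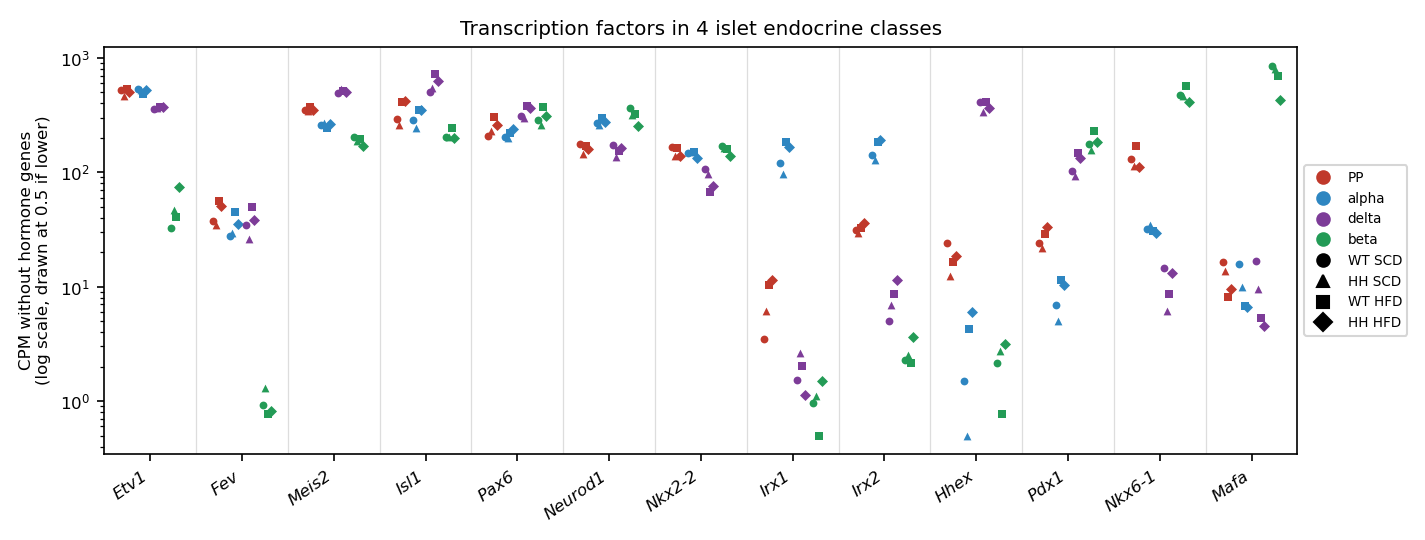
Levels of islet transcription factors in CPM without the hormone genes (log axis, values under 0.5 drawn at 0.5), 1 marker per library and class, coloured as PP red, alpha blue, delta violet and beta green. Irx1 of PP cells (3.47 to 11.4 CPM) lies far below alpha cells, and Nkx6-1 of PP cells (110.5 to 168 CPM) lies between beta cells and the rest.

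Receptors for signals that drive or curb PP release were few at these depths, and 22 of 32 listed receptors had enough counts to be tested. Of these, 7 were higher and 5 lower than the mean of the other classes, beside 12.8% and 10.8% of all genes. Chrm3, the muscarinic receptor through which vagal acetylcholine acts, stood at 32.9, 30.9, 36.9 and 33.0 CPM in PP cells. It averaged 1.94 ± 0.349 CPM in alpha and 7.25 ± 3.92 CPM in delta cells, so PP cells were higher by 3.98 ± 0.25 and 2.32 ± 0.21 log2 units (edgeR adjusted p = 1.8e-10 and 2.8e-08). Beta cells averaged 39.9 ± 6.98 CPM of Chrm3, above PP cells by 0.41 log2 units (−0.41 ± 0.14 for PP minus beta, edgeR adjusted p = 0.020). Galr1, a galanin receptor, also lay between beta cells and the rest, with 16.5, 9.61, 22.5 and 21.6 CPM in PP cells, 2.15 ± 0.855 in alpha, 0.801 ± 0.579 in delta and 37.3 ± 5.01 CPM in beta cells.

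Lipid receptors were present in PP cells as well. Ffar4, a receptor for long-chain fatty acids, averaged 60.2 ± 6.05 CPM in PP, 46.5 ± 12.4 in alpha, 115 ± 4.75 in delta and 2.85 ± 0.541 CPM in beta cells. Gpr119, a receptor for fatty acid amides, averaged 34.2 ± 6.01 CPM in PP against 55.9 ± 21.3 in alpha, 10.3 ± 0.920 in beta and 2.57 ± 0.993 CPM in delta cells. Glp1r, the incretin receptor of beta cells, averaged 15.6 ± 5.38 CPM in PP and 534 ± 79.9 CPM in beta cells. Sstr2, the somatostatin receptor of alpha cells, averaged 6.61 ± 1.75 CPM against 34.1 ± 5.19 CPM in alpha cells, whereas Sstr3 averaged 65.5 ± 22.4 and 63.1 ± 20.1 CPM in these 2 classes. Gcgr, the glucagon receptor, had 0 UMIs in the PP cells of all 4 libraries.

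Scg5, the chaperone 7B2 of prohormone convertase 2, was the 1 gene of 11 that was higher than the mean of the others (12.8% of all genes were), at 3069, 2983, 3202 and 2933 CPM against averages of 2241 in alpha, 1528 in delta and 1367 CPM in beta cells (0.80 ± 0.07 log2 units, edgeR adjusted p = 2.4e-08). Chga, Scg3 and Pcsk1 were lower, beside 10.8% of all genes. Pcsk1, the convertase of proinsulin, averaged 46.3 ± 8.08 CPM in PP, 7.47 ± 0.525 in alpha, 78.0 ± 7.58 in delta and 497 ± 12.8 CPM in beta cells. Pcsk2, the convertase of proglucagon, averaged 3558 ± 377 CPM, below alpha cells (5408 ± 508, edgeR adjusted p = 2.9e-06) and above delta cells (2801 ± 136, edgeR adjusted p = 6.1e-04). Among granins, Chgb averaged 2190.3 ± 254 CPM in PP against 988 ± 13.7 CPM in alpha cells, while Chga averaged 5539.8 ± 845 against 8485 ± 566 CPM.

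Of 18 genes of exocytosis and excitability, 2 were higher and 6 lower than the mean of the others, beside 12.8% and 10.8% of all genes, so the share that was higher lay near the background. Cadps, which primes dense-core granules, averaged 162 ± 19.1 CPM in PP cells against 5.02 ± 2.30 CPM in delta cells (5.02 ± 0.15 log2 units, edgeR adjusted p = 1.5e-15). Snap25, a fusion protein of the granule release step, stood at 305, 269.7, 205 and 215 CPM. Of 12 genes of glucose entry and glycolysis, 3 were higher and 6 lower, against the same background. Slc2a2, the glucose transporter of beta cells, averaged 7.67 ± 2.74 CPM in PP cells against 564 ± 155 CPM in beta cells. Of 13 other peptide genes, 5 were lower than the mean and 0 higher by edgeR, beside 10.8% and 12.8% of all genes, and Iapp, the amyloid peptide gene, stood at 6299.5, 7388, 3159 and 4402 CPM against 98395 ± 22581 CPM in beta cells. Its level in a PP cell can include free RNA, whose part was not tested.

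All 21 chaperones and stress genes of the endoplasmic reticulum were lower in PP than in beta cells, as were 24.3% of all genes, with a median of −1.12 log2 units against −0.03 over all genes, while 8 were higher and 2 lower than in delta cells, beside 13.2% and 12.8% of all genes. Ribosomal protein genes were lower than in alpha cells for 72 of 79 (median −0.45, beside 10.2% of all genes) and higher than in beta cells for 68 (median 0.47, beside 22.0%). Against the mean of the 3 classes 9 were higher and 1 lower, beside 12.8% and 10.8%, so the higher share lay near the background. Of 10 heat shock chaperones, 6 were higher than in alpha cells (10.4% of all genes were) and 6 lower than in delta cells (12.8%). Hspb1, a small heat shock protein, stood at 425, 369, 849 and 478 CPM in PP cells against 53.9 ± 28.9 in alpha, 32.1 ± 10.1 in beta and 763 ± 353 CPM in delta cells, with edgeR adjusted p of 1.3e-09 against alpha, 3.1e-12 against beta and 0.14 against delta cells.

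Of 15 immediate early genes, which respond within minutes to stimulation or dissociation, 4 were higher than the mean of the others, beside 12.8% of all genes, and 9 higher than in beta cells, beside 22.0%. Atf3 stood at 457, 730.1, 2029 and 1645 CPM in PP cells, so both HFD libraries lay above both SCD libraries. Metallothioneins, which bind zinc and copper, had the opposite order. Mt1 stood at 3590.4, 2282, 662 and 962 CPM and was higher in PP cells than in the mean of the others by 1.41 ± 0.14 log2 units (edgeR adjusted p = 2.2e-07). Top2a, a gene of dividing cells, stood at 0, 19.9, 18.4 and 30.6 CPM, and Mki67 at 0, 6.18, 7.17 and 25.2 CPM. Top2a had a UMI in 0% to 3.04% of the PP cells of a library, and 1 cell held 96.6% of its HH SCD count and 100% of its WT HFD count.

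Most lists of non-endocrine markers were low in the PP sums, apart from the duct list, which Spp1 led, and the lymphocyte list. Of the 7 lymphocyte genes, Cd3e and Cd3d were at 0, and the list summed to 1.37 to 6364 CPM over libraries, where the highest value came from HH HFD. PP cells with at least 20 UMIs over 7 immunoglobulin, haemoglobin and immune genes numbered 0, 1, 1 and 6, and without them the lymphocyte sum was 1.39 to 37.9 CPM. Macrophage markers summed to 76.3 to 134 CPM, against 110.1 to 169 in alpha cells. Stromal markers summed to 13.9 to 18.008 CPM with Pdgfrb at 0, acinar enzymes to 19.2 to 38.4 CPM, and Schwann markers to 22.6 to 25.1 CPM with Sox10 at 0. Markers of ghrelin cells summed to at most 2.06 CPM.

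Some PP cells also carried glucagon transcripts, at shares that ran on through the 2% used here to group them. Gcg made up 2% or more of the UMIs in 14, 28, 15 and 47 PP cells, or 10.5% (95% exact interval 5.88 to 17.0), 15.8% (10.8 to 22.0), 17.6% (10.2 to 27.4) and 20.4% (15.4 to 26.2). No endothelial cell did so, which their definition largely fixed, since a cell led by Gcg at 2% was an alpha cell. Of the 104 PP cells with Gcg, 1 was marked as a doublet, a number that depends on the assumed rate. Their median doublet score was above that of the other PP cells in every library, at 0.0317, 0.019, 0.01 and 0.0259 against 0.0045, 0.0066, 0.0071 and 0.0113, and its part in the results on these cells was not tested. Their median Gcg share was 9.37%, 7.24%, 10.4% and 10.4%, and their median Ppy plus Pyy share was 23.7%, 26.1%, 24.8% and 27.6%, against 48.4% to 49.6% in the other PP cells. A single Gcg UMI did not set PP cells apart from free RNA, since after thinning to 3000 UMIs 69.4% to 87.4% of PP cells and 76.9% to 85.3% of endothelial cells held one. At 10 or more Gcg UMIs of 3000, a lower bar than 2%, the shares were 14.3%, 19.8%, 22.4% and 24.8% of PP cells and 0% to 1.31% of endothelial cells.

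These cells had more of the alpha factors that were low in PP cells as a whole. Irx1 stood at 23.7, 25.4, 40.8 and 36.1 CPM in the summed PP cells with Gcg, at 0.973, 2.46, 3.73 and 5.25 CPM in those without, and at 95.7 to 182 CPM in alpha cells. In each library the cells with Gcg lay between the other PP cells and alpha cells for Irx1, Irx2, Ttr and Slc7a2. The alpha gene Slc38a5 did not do so in WT HFD, where it was at 0 CPM with Gcg, and it stood at 7.91 to 18.1 CPM with Gcg in the other libraries, 3.00 to 9.01 CPM without and 80.4 to 132 CPM in alpha cells. Ttr stood at 14995, 17749.9, 9351 and 7696 CPM with Gcg and 3389 to 5393 CPM without.

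PP genes lay lower in the cells with Gcg, and not all by the same amount. Tspan8 stood at 609, 597, 699 and 785 CPM with Gcg against 1622, 1322, 1984 and 1953 CPM without, still above the 38.6 to 91.4 CPM of alpha cells. Spp1 stood at 63.2, 182, 40.8 and 397 CPM with Gcg against 621 to 821 CPM without. Nkx6-1 stood at 7.91, 59.3, 81.6 and 39.1 CPM against 124 to 186 CPM. These levels were compared as a description, without a test.

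**Figure D4:**
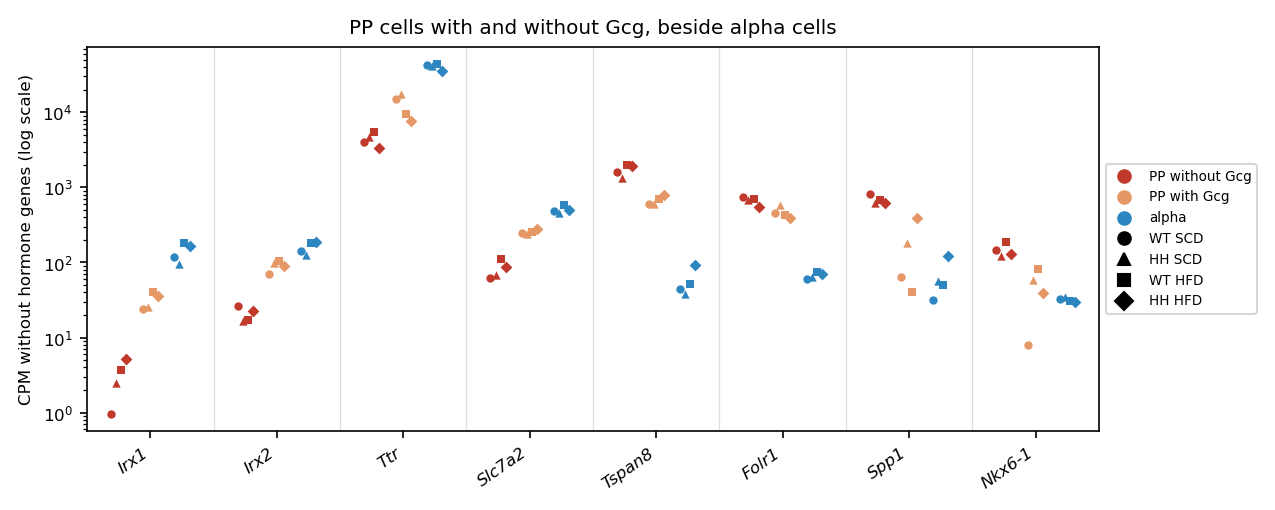
Levels in CPM without the hormone genes (log axis) of alpha and PP genes in PP cells with 2% or more Gcg, in the other PP cells and in alpha cells, 1 marker per library. For Irx1 the cells with Gcg (23.7 to 40.8 CPM) lie between the other PP cells (0.973 to 5.25) and alpha cells (95.7 to 182).

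PP cells with somatostatin transcripts were fewer and went against the label in their other genes. Sst made up 2% or more of UMIs in 10, 12, 5 and 14 PP cells, and 3 of these 41 were marked as doublets. Their median Ppy plus Pyy share was 11.5% to 12.6%, and 31 of them had an Hhex UMI. Hhex stood at 373, 174, 374 and 247 CPM in these cells, 0 to 2.90 CPM in the other PP cells and 338 to 412 CPM in delta cells. Shisal2b stood at 911 to 1205 CPM, against 2.14 to 32.7 and 961 to 1086 CPM. Spp1 stood at 41.4, 87.0, 0 and 73.1 CPM in the 41 cells, against 583 to 784 CPM in the other PP cells and 53.6 to 73.8 CPM in delta cells. None of the 41 was among the cells with 2% Gcg. Ins1 plus Ins2 reached 2% in 61 PP cells (22, 24, 0 and 15), but also in 44, 14, 34 and 19 endothelial cells.

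The balance of Ppy and Pyy divided the PP cells further. Within each library the cells were split at the median Pyy share of Ppy plus Pyy into a Pyy-rich group (66, 88, 42 and 115 cells, median shares 35.2%, 37.5%, 34.8% and 27.7%) and a Pyy-poor group (67, 89, 43 and 115 cells, 16.9%, 17.1%, 14.6% and 13.4%). The groups are ranges of 1 measure, cut from the Ppy and Pyy of the cells themselves, and not cell types, and neither gene was tested. With the library as block, 0.717% of 9626 genes (69) were higher and 0.260% (25) lower in the Pyy-rich group at an edgeR adjusted p under 0.05. DESeq2 called 19 and 2 of them, and leaving out 1 library lowered the calls to 45 higher without WT HFD and to 16 lower without WT SCD. The Pyy-rich group held 84 of the 104 cells with Gcg and 38 of the 41 with Sst. The genes with the largest fold changes included the delta genes Hhex (5.93 ± 0.56 log2 units) and Ptprz1 (5.02 ± 0.70), and without the cells that carried another hormone the calls numbered 30 higher and 26 lower, of which 31 were calls of the full set in the same direction.

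Of 10 genes of the prohormone processing list, 3 were higher and 0 lower in the Pyy-rich group by edgeR, beside 0.717% and 0.260% of all genes, and some genes outside that list were higher as well. Ttr stood at 7177, 10573, 9622 and 5459 CPM in the Pyy-rich and 3201, 2818, 2625 and 3011 CPM in the Pyy-poor group (1.46 ± 0.11 log2 units, edgeR adjusted p = 1.5e-09), and the difference was 1.29 without the cells that carried another hormone. Rbp4, the retinol carrier of plasma, was higher by 1.31 ± 0.10 log2 units, but by 0.27 without those cells (edgeR adjusted p = 0.53). Igfbp7, a secreted binding protein, stood at 467, 547, 416 and 381 CPM against 258, 225, 191 and 187 CPM (1.09 ± 0.09, and 0.57 without those cells). The granin gene Chga stood at 6839, 7776, 6527 and 4627 CPM against 5148, 4899, 4128 and 4284 CPM (0.48 ± 0.07, edgeR adjusted p = 6.8e-05, and 0.37 without those cells). Chgb (0.44 ± 0.05), Iapp (0.92 ± 0.08), the antioxidant gene Gpx3 (0.41 ± 0.06) and Pam, which amidates peptide hormones (0.35 ± 0.07), were also higher, and without those cells they differed by 0.43, 0.49, 0.55 and 0.45 log2 units and kept their calls. DESeq2 did not call Chga or Pam (adjusted p = 0.17 and 0.62) and called Ttr, Igfbp7, Chgb, Iapp and Gpx3. These 7 genes were higher in the Pyy-rich group in all 4 libraries.

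The PP markers were divided between the groups. Folr1 was higher in the Pyy-rich group, at 803, 722, 741 and 552 CPM against 601, 617, 552 and 484 CPM (0.32 ± 0.07 log2 units, edgeR adjusted p = 0.0091), and the difference was 0.59 without the cells that carried another hormone. DESeq2 did not call Folr1 (adjusted p = 0.82). Tspan8 was lower in the Pyy-rich group, at 1359.6, 917, 1428 and 1537 CPM against 1669, 1506, 2081 and 1907 CPM (−0.45 ± 0.06, edgeR adjusted p = 6.6e-05). Without the cells that carried another hormone Tspan8 differed by −0.19 (edgeR adjusted p = 0.35). The cytoskeletal gene Limch1 was lower in the Pyy-rich group in every library, at 30.4 to 59.4 against 80.0 to 131 CPM (−1.46 ± 0.17), as was Ccn1, a secreted matrix protein, at 32.1 to 68.9 against 71.1 to 132 CPM (−1.04 ± 0.17). Both kept their calls without those cells, at −0.71 and −0.88, but DESeq2 called Limch1 and not Ccn1 (adjusted p = 0.26).

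Some calls between the Pyy groups came with RNA of 1 or a few cells. Igkc, Ighm and Jchain, immunoglobulin genes, were lower in the Pyy-rich group by 6.40, 6.06 and 5.93 log2 units, and 96.8%, 94.7% and 96.3% of their HH HFD counts lay in 1 PP cell. Without the cells that carried another hormone they were higher in the Pyy-rich group, by 5.36, 4.09 and 5.47, and DESeq2 did not call them in the full set. Hbb-bs, a haemoglobin gene, was higher by 7.18, with 99.0% of its HH HFD count in 1 cell. Ccl4, an immune gene, had 100% of its HH SCD count in 1 cell. Cd74, another, had 98.5% of its HH SCD count in 1 cell but 26.8% of its larger HH HFD count, which lay in 9.13% of the cells. Without the cells with such RNA 85 genes were called, of which 77 were calls of the full set in the same direction.

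The share of PP cells among cells of the 4 endocrine classes was 4.49% (95% exact interval 3.77 to 5.30) of 2961 in WT SCD and 5.85% (5.04 to 6.75) of 3024 in HH SCD. In the HFD pair it was 5.07% (4.07 to 6.23) of 1677 and 5.73% (5.03 to 6.499) of 4011. HH minus WT was 1.36 percentage points (0.22 to 2.51) on SCD and 0.67 (−0.69 to 1.92) on HFD. The intervals cover counting error only, and the part of dissociation and of the piece of pancreas sampled was not tested.

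HH was set against WT within PP cells in each diet as a ratio of the summed counts, with exact 95% intervals that cover counting error only and no test, since each group was 1 library. Of 3361 genes that averaged at least 50 CPM, 0.179% (6) were at least 2-fold higher and 0.0298% (1) at least 2-fold lower in HH SCD. On HFD 0.208% (7) were 2-fold higher and 0.0595% (2) lower. Intervals lay above 0 for 4.64% and below 0 for 4.91% of the genes on SCD, and for 5.53% and 7.29% on HFD. The median log2 ratio over these genes was −0.02 on SCD and −0.03 on HFD.

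PP genes differed as follows. Tspan8 differed by −0.33 on SCD and −0.03 on HFD, Folr1 by −0.07 and −0.32, and Spp1 by −0.41 and 0.04 log2 units. The 2-fold higher genes on SCD included Klf2, Cd59a and the immune genes Apoe, Cd74 and Ccl4. Klf2, a zinc finger factor, went from 33.8 to 76.9 CPM (1.19, interval 0.65 to 1.75), and 1 cell held 28.6% of its HH SCD count. Without the cell highest in Klf2 in each library it went from 29.6 to 55.1 CPM (0.90, 0.30 to 1.52), under 2-fold. Cd59a went from 64.1 to 129.7 CPM (1.02, 0.62 to 1.42), and by 1.07 without its highest cells. On HFD they differed by 0.33 and −0.65. Klf10, a factor induced by transforming growth factor, was the 2-fold lower gene, at 86.7 in WT SCD and 36.4 CPM in HH SCD (−1.25, −1.76 to −0.76), and differed by 0.11 on HFD.

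Among the 5 highest and 5 lowest ratios of each diet at 100 CPM or more, 4 genes had ratios of opposite sign on the 2 diets with intervals clear of 0. Over all 3361 genes 1.19% (40) did so, Cd59a and Ttr among them. The 4 genes were picked by a large ratio with an interval clear of 0 on 1 diet, so that share is not a background for them. Ttr went from 5239 to 6789 CPM on SCD (0.37, 0.33 to 0.42) and from 6089 to 4248 CPM on HFD (−0.52, −0.57 to −0.47), and by 0.33 and −0.34 without its highest cells. In the PP cells without Gcg, Ttr went from 4037 to 4670 CPM on SCD and from 5393 to 3389 CPM on HFD. The part of the cells with Gcg, which had more Ttr and differed in share between libraries, was not tested. Klf6, an immediate early factor, went from 169 to 288 CPM on SCD (0.77, interval 0.52 to 1.02) and from 532 to 446 CPM on HFD (−0.25, −0.42 to −0.09). Dnajb1, a co-chaperone of heat shock protein 70, went from 345 to 575 CPM (0.74, 0.56 to 0.91) and from 691 to 454 CPM (−0.61, −0.76 to −0.46). Cd9 went from 263 to 165 CPM (−0.67, −0.92 to −0.42) and from 232 to 286 CPM (0.31, 0.08 to 0.54). Mt1 went from 3590.4 to 2282 CPM (−0.65, −0.72 to −0.59) and from 662 to 962 CPM (0.54, 0.41 to 0.67).

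Other classes shared some of these ratios. Klf6 had the same signs in alpha (0.26 and −0.31), delta (0.48 and −0.31) and beta cells (0.18 and −0.61). For Cd9 the ratios were −0.30 and 0.32 in alpha, −0.65 and 0.26 in delta and −0.17 and 1.46 in beta cells, and the interval was clear of 0 for beta cells on HFD only. Mt1 had them in alpha (−0.58 and 0.39) and delta cells (−0.88 and 0.85), whereas in beta cells it was lower on both diets (−0.88 and −1.15). Dnajb1 had them in alpha (0.36 and −0.24) and delta cells (0.47 and −0.56), and beta cells were at −0.21 and −1.48. Ttr had the signs of PP cells on both diets in none of these classes. It was at −0.04 and −0.27 in alpha, −1.19 and 0.67 in delta and 0.07 and 1.05 in beta cells. Over the heat shock list, 8 of 9 genes were above 0 on SCD (median 0.17) and 1 of 9 on HFD (median −0.36), beside 46.4% and 43.6% of all 3361 genes.

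On HFD the lowest ratios in PP cells at 100 CPM or more included Nrip1, Hspa1b and Hspb1. Nrip1, a nuclear receptor corepressor, went from 106 in WT HFD to 51.0 CPM in HH HFD (−1.05, interval −1.48 to −0.62, and −0.98 without the highest cell of each library), against 0.03 on SCD and −0.01, 0.11 and −0.37 in alpha, delta and beta cells on HFD. Hspb1 went from 849 to 478 CPM (−0.83, −0.97 to −0.69), while alpha cells were at 1.14, delta cells at −0.46 and beta cells at 0.39. Hspa1b was at −0.95 in PP cells and at −0.72, −1.08 and −1.72 in alpha, delta and beta cells. The 2-fold higher genes on HFD were Igkc, Jchain, Ighm, Hbb-bs, Cd74, Apoe and Krtap17-1. Without the cells that held immunoglobulin, haemoglobin or immune RNA the 2-fold higher share was 0.0298% on HFD and 0.0596% on SCD. Those cells were picked by Igkc, Ighm, Jchain, Cd74, Ccl4, Apoe and Hbb-bs. These are among the 2-fold higher genes themselves, so the lower share follows in part from the pick.

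Lists of genes are given by their medians. For comparison, 46.4% of all genes were above 0 on SCD and 43.6% on HFD. The 9 prohormone processing genes in use had a median log2 ratio of 0.00 on SCD, with 5 above 0, and −0.13 on HFD, with 0 above 0 and 7 with intervals below 0, beside 7.29% of all genes. Of 78 ribosomal protein genes, 49 were above 0 on SCD (median 0.03) and 68 on HFD (median 0.11). The 17 genes of the endoplasmic reticulum stress list had medians of 0.06 and −0.07, and the 15 transcription factors in use had −0.16 and −0.15. The 14 immediate early genes had medians of 0.34 on SCD, with 11 above 0, and 0.14 on HFD, with 9 above 0.

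**Figure D5:**
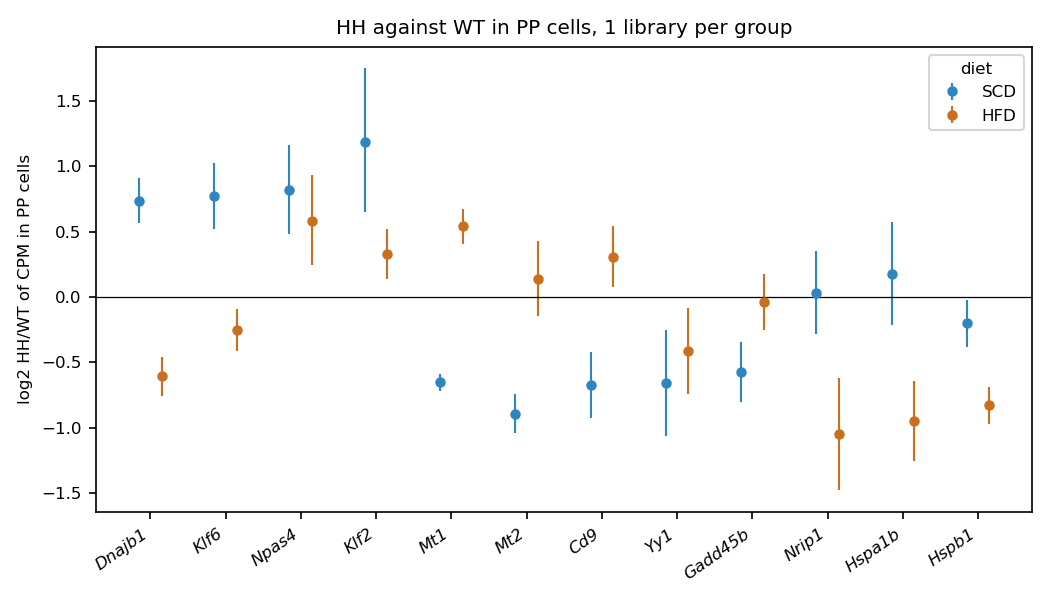
Log2 ratio of HH over WT in the summed CPM of PP cells for named genes, by diet, with bars for the 95% exact interval that covers counting error only, from 1 library per group. Klf6 and Dnajb1 lie above 0 on SCD (0.77 and 0.74) and below 0 on HFD (−0.25 and −0.61), and Cd9 and Mt1 lie the other way round.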

How the data were processed

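The authors sequenced 10x Genomics 3′ libraries and made UMI counts per gene and barcode with Cell Ranger 6.0 on the mouse build mm10 (GRCm38), and the deposited matrices hold these raw counts. Here cells were filtered and classed as stated, counts were summed per class and library, and sums were tested with edgeR 4.0.16 (glmQLFit, TMM, library as block, R 4.3.3) on genes with at least 40 counts over the sums. P-values were adjusted by Benjamini-Hochberg over all genes tested. HH/WT ratios used a floor of 3 counts. Doublets were scored with Scrublet in scanpy 1.11.5, and the number marked in a library was set by the assumed rate. The edgeR script was tested on simulated independent counts of 14651 genes, for PP against the mean of the other classes. It recovered 96% of 100 genes changed 2-fold, all picked at a mean above 10 CPM, so lower genes were not covered. Named genes were the fixed lists, up to 15 PP-high and 10 PP-low genes by their margin over the nearest class, up to 8 per direction between Pyy groups by fold change at 50 CPM or more, and the 5 highest and 5 lowest HH/WT ratios per diet at 100 CPM or more with an interval clear of 0. Other genes named were chosen after their values were seen. The members, lists and comparisons were chosen with earlier results of these data known. Gene coordinates are from GENCODE vM21 on GRCm38. Some named genes are not reported here.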

Additional observations from a re-analysis of the deposited data

Results flagged for a closer look

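Of the HH/WT ratios named for PP cells, those of 6 genes had opposite signs on the 2 diets with counting intervals clear of 0 on each. Over all 3361 genes 1.19% did so. That share is not a background for genes picked by their ratios, since most of the 3361 had no interval clear of 0. Klf6 was at a log2 ratio of 0.77 on SCD and −0.25 on HFD. Dnajb1 was at 0.74 and −0.61. Cd9 was at −0.67 and 0.31, Mt1 at −0.65 and 0.54, Cd59a at 1.02 and −0.65, and Ttr at 0.37 and −0.52. The gap between diets was not tested, since each genotype and diet had 1 library, and diet, age and library cannot be told apart.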

How the results depend on the processing

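Under the alternatives, 921 recomputed values for single genes, lists or libraries kept their direction and call, 25 moved beyond their interval, 33 lost a call, all of them between the Pyy groups, and 6 changed sign. Of the values for whole comparisons, 181 were kept and 25 moved. The share of genes 2-fold higher in HH SCD PP cells was 0.0892% at a hormone share of 5%, 0.519% with a minimum of 20 CPM and 0.0596% without the cells holding RNA of blood cells. The 2-fold lower share on SCD was 0.0595% at a hormone share of 5%, with each cell weighted equally and without gene bounds, 0.0597% without cells that carried another hormone, 0.290% at 20 CPM and 0% at 100 CPM. On HFD the higher share was 0.366% at 20 CPM and 0.0298% without blood RNA, and the lower share was 0.0297% at 5%, 0.0894% without doublets, 0.259% at 20 CPM and 0.0298% without blood RNA. Cd74 on SCD turned to −1.12 at a hormone share of 5% and to −0.60 without the cell that held most of it in each library. Leaving out 1 library gave 1028 to 1303 genes higher and 998 to 1299 lower in PP than in alpha cells, both lowest without HH SCD. Between the Pyy groups it gave 45 to 64 higher (lowest without WT HFD) and 16 to 24 lower (lowest without WT SCD). Calls higher in the Pyy-rich group numbered 30 without cells that carried another hormone, 18 without the library block and 19 by DESeq2 1.42.0, and lower calls 53 without a filter on low counts, 1 without the block and 2 by DESeq2. Without cells that carried another hormone Igkc, Ighm and Jchain turned to 5.36, 4.09 and 5.47, and without blood RNA Apoe turned to 0.58. The alternatives without a further hormone, without blood RNA and without the highest cell of a gene were chosen after seeing the data. The fits between classes and between Pyy groups were paired by library. A fit of genotype over both diets, with diet as block, was not run. It would have only 1 library of pooled islets per genotype and diet. The number of PP cells is a further limit.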

Other observations

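Of 14 genes of antigen presentation and interferon response, H2-D1 was higher and Tapbp lower than the mean of alpha, delta and beta cells in edgeR's quasi-likelihood test, beside 12.8% and 10.8% of all genes. Against single classes, 3 were higher than in alpha cells (10.4% of all genes), 4 lower than in delta cells (12.8%), and 2 higher and 3 lower than in beta cells (22.0% and 24.3%). Of 6 cell cycle genes, Top2a and Pcna were higher than that mean. The Top2a counts lay in at most 3.04% of the PP cells of a library. Pcna stood at 78.0, 76.9, 74.8 and 77.4 CPM in PP cells and averaged 51.2 to 60.6 CPM in the other classes (log2 fold change 0.37 ± 0.09, edgeR adjusted p = 0.0044).

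The zinc transporter gene Slc30a8, known for loading insulin granules, stood at 127, 161, 193 and 137 CPM in PP cells. It averaged 828 ± 30.4 CPM in alpha, 950.0 ± 152 CPM in beta and 24.5 ± 5.17 CPM in delta cells, so PP cells lay between delta cells and the other classes in every library (edgeR adjusted p = 3.1e-12 against delta and 5.2e-13 against alpha cells).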
